A study of Homo sapiens with 6 samples.

Results

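Mitochondrial ribosomal proteins were followed at the RNA level in SW1736, a human anaplastic thyroid cancer cell line, by taking every row of the protein-coding table whose symbol begins with MRPL or MRPS and a number. The rule gave 77 genes of the 20288 in the table, 48 named for the large subunit (MRPL) and 29 for the small subunit (MRPS). The cells were kept for 72 h at 21% oxygen (normoxia, 3 libraries) or at 2% oxygen (hypoxia, 3 libraries), with no other treatment and no genetic change named. The data are small RNA sequencing of total RNA with CATS, in which RNA ends are tailed and copied without adapter ligation, so a count is a short fragment aligned to 1 listed transcript of the gene. The paper calls the origin of such fragments unknown and proposes uneven degradation of the parent transcripts. A fold change below may therefore differ from that of the whole mRNA, which was not tested. The labels number the replicates without saying whether they were separate cultures, so the p-values below measure only the spread between these libraries.

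The mitoribosome is the ribosome inside mitochondria, and it translates the few mRNAs that the mitochondrial genome encodes, all of them for subunits of the respiratory chain and ATP synthase. Its rRNAs come from the mitochondrial genome, while all its proteins are encoded in the nucleus, made in the cytosol and imported. Some of these proteins descend from those of bacterial ribosomes, and others are found only in mitochondrial ribosomes, where rRNA has become shorter than in bacteria.

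The 6 libraries held 1469151 to 1781753 counts over both deposited tables, and the 77 genes took 0.248% to 0.274% of the protein-coding counts. Of the 9 thyroid markers looked up, PAX8 and FOXE1 passed the filter on low counts and 7 did not (at most 46 counts over the 6 libraries), DIO1 without any count among them. The hypoxia genes CA9, NDRG1, BNIP3, PGK1 and LDHA were all higher in the hypoxic libraries, with log2 fold changes of 0.72 to 3.67 and adjusted p under 0.05 in edgeR's quasi-likelihood test. CA9, the highest, had 1, 3 and 0 counts in normoxia and 23, 23 and 11 in hypoxia, so it passed the filter only through hypoxia. NDRG1, BNIP3, PGK1 and LDHA are also in the paper's list of changed genes from this comparison, so their rise is not independent support. Levels below are normalized CPM, counts scaled to a common library size by TMM, which are shares of the sequenced RNA, so a change in RNA per cell cannot be seen in them.

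Among the mitoribosomal proteins, MRPS26 was the only gene that passed the test, and it rose 1.65-fold in hypoxia. Of the 77 genes, 68 passed the filter on low counts (40 MRPL and 28 MRPS genes). By edgeR, with p-values adjusted by Benjamini-Hochberg across all 11276 features, 1 MRPS gene and no MRPL gene was higher at an adjusted p under 0.05, and none of either was lower. Over all 11082 protein-coding features tested, 0.596% were called higher and 0.144% lower, or 0.74% in either direction, so a count of 1 in 68 is near that background. DESeq2 and limma-voom called no MRPL gene either, though DESeq2 gave no adjusted p for some, such as MRPL11, MRPL12, MRPL33, MRPL44 and MRPL49. At an unadjusted p under 0.05, 3 of the 68 genes were higher and 2 lower, where 5.64% and 4.74% of all protein-coding features were. The 3 hypoxic libraries lay entirely above or below the 3 normoxic ones in 9 of the 68 genes (13.2%), against 15.3% of all protein-coding features. They were above in 6 and below in 3 of the 68, where 8.27% and 7.01% of all protein-coding features were.

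The large and the small subunit were then set side by side. The median log2 fold change was -0.05 over the 40 MRPL genes and -0.05 over the 28 MRPS genes, beside -0.01 over all protein-coding features. Values ran from -0.51 to 0.64 in MRPL genes and from -0.34 to 0.72 in MRPS genes. Below 0 lay 23 of 40 MRPL and 19 of 28 MRPS genes, beside 5650 of all 11082 protein-coding features. The difference between the subunits was described only, as genes of 1 complex are not replicates.

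**Figure D1:**
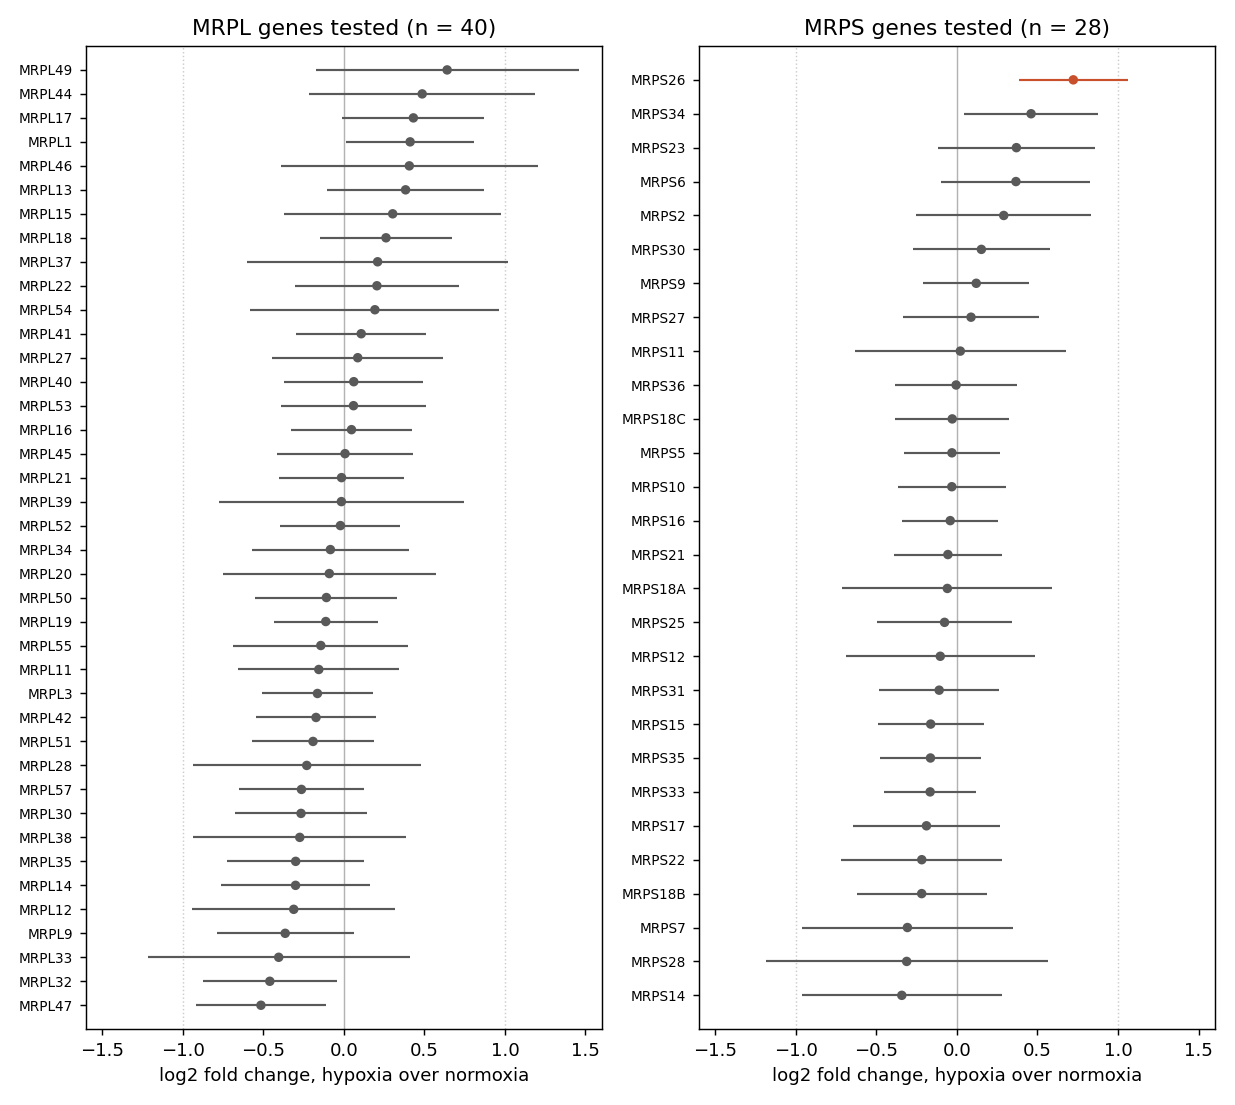
Log2 fold change of hypoxia over normoxia (points) with 95% intervals from edgeR's fit (lines) for the 40 MRPL and 28 MRPS genes tested, with dotted lines at a 2-fold change in each direction. MRPS26, in red, is the only gene with an adjusted p under 0.05, and the intervals of most others lie inside the dotted lines and include 0.

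Summed over all 48 MRPL genes, the level was 1214, 1265 and 1097 normalized CPM in the normoxic libraries, in the order of their replicate numbers as throughout, and 1092, 1167 and 1182 in the hypoxic ones. Summed over all 29 MRPS genes, it was 1055, 1133 and 1160 in normoxia and 1047, 1169 and 1169 in hypoxia. In both subunits the groups overlapped, and the means differed by less than the SD between libraries (1192 ± 86.5 against 1147 ± 48.6 for MRPL, and 1116 ± 54.4 against 1128 ± 70.5 for MRPS, SD, n = 3 each). The ratio of the MRPL to the MRPS sum was 1.15, 1.12 and 0.945 in the normoxic libraries and 1.04, 0.999 and 1.01 in the hypoxic ones. All 3 hypoxic ratios lay within the range of the normoxic ones.

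**Figure D2:**
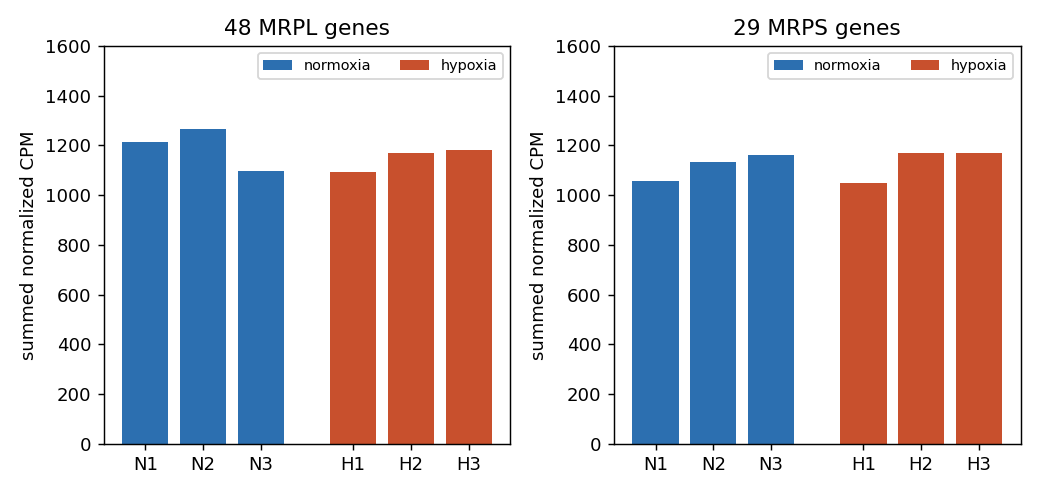
Normalized CPM summed over the 48 MRPL genes (left) and the 29 MRPS genes (right) in each library, N1 to N3 for normoxia and H1 to H3 for hypoxia. The hypoxic bars of both subunits overlap the normoxic ones, at 1047 to 1265 in all.

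MRPS26 encodes mS26, a protein of the small subunit that bacterial ribosomes lack. Its level was 35.0, 47.6 and 48.3 normalized CPM in the normoxic libraries (54, 74 and 76 counts) and 75.4, 74.9 and 65.3 in the hypoxic ones (123, 130 and 94 counts). All 3 hypoxic libraries were above all 3 normoxic ones, and normoxia replicate 1 was the lowest of its group. The mean level was 43.6 ± 7.47 in normoxia and 71.9 ± 5.69 normalized CPM in hypoxia, with SD over 3 libraries each. The log2 fold change was 0.72 (standard error 0.165, 95% interval 0.38 to 1.06, adjusted p = 0.0267 from edgeR), which ranked 54 by p among the 11082 protein-coding features. Relative to the sum of the other MRPS genes, MRPS26 was at 0.0343, 0.0438 and 0.0434 in normoxia and at 0.0776, 0.0685 and 0.0592 in hypoxia. It thus stood higher against the other genes named for its subunit too, although these include MRPS18A, MRPS30 and MRPS36, described below. The call was lost by DESeq2 (adjusted p = 0.0683 from DESeq2) and, in edgeR, without normoxia replicate 1 (log2 fold change of 0.59, adjusted p = 0.216), normoxia replicate 3 (0.80, 0.0525), hypoxia replicate 1 (0.69, 0.118) or hypoxia replicate 2 (0.69, 0.211). In GRCh38 the gene lies on the plus strand of chromosome 20 from 3046052 to 3048250, and GENCODE 44 gives no other protein-coding gene that overlaps it and no pseudogene of its name.

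**Figure D3:**
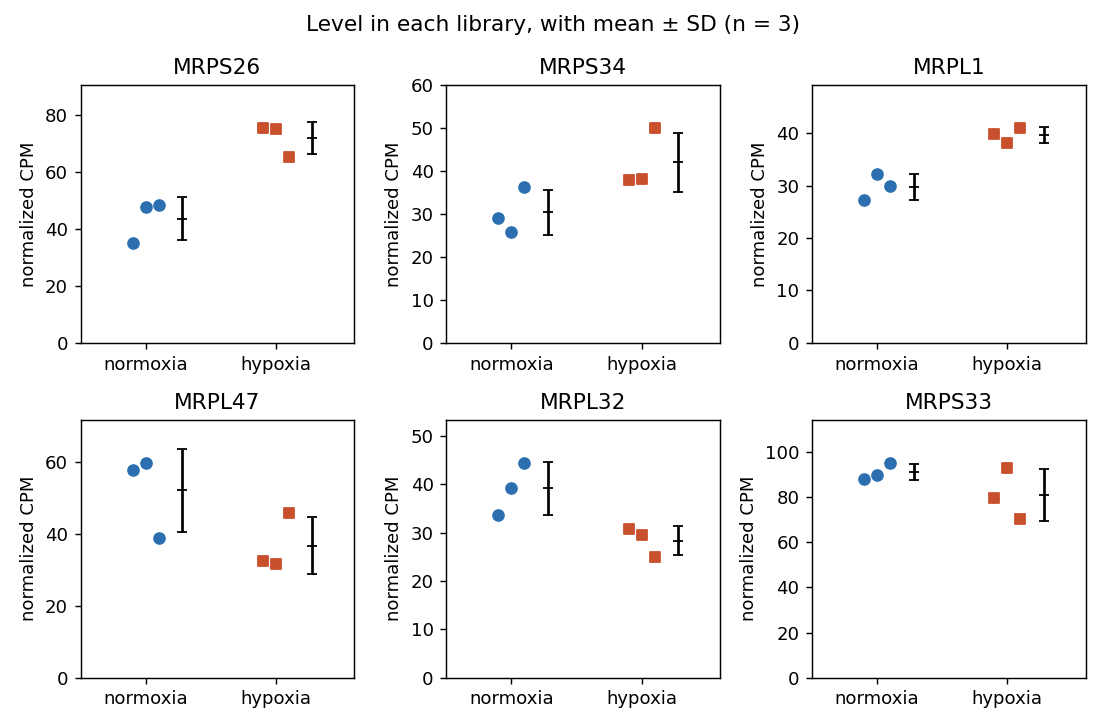
Normalized CPM of 6 genes in each normoxic (blue circles) and hypoxic (red squares) library, with the mean ± SD of each group (n = 3) in black. MRPS26 has the widest gap between the groups, and MRPS33, the gene with the most counts, overlaps between them.

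Among the other small-subunit genes, the largest fitted increases belonged to MRPS34, MRPS23 and MRPS6. MRPS34, in which variants cause a mitochondrial disease of the Leigh type, was at 29.2, 25.7 and 36.2 normalized CPM in normoxia and at 38.0, 38.0 and 50.03 in hypoxia. The groups did not overlap, and the log2 fold change of 0.46 (95% interval 0.04 to 0.88) did not pass the test (adjusted p = 0.413 from edgeR). MRPS34 overlaps EME2 on the opposite strand, and whether the authors counted by strand is not given in the sources used here. MRPS23, a protein found only in mitochondrial ribosomes, was at 28.5, 28.3 and 19.7 in normoxia and at 25.1, 29.4 and 45.2 normalized CPM in hypoxia, where replicate 3 stood above the other libraries. MRPS6, the counterpart of bacterial S6, which overlaps SLC5A3 on the same strand, was at 20.7, 21.2 and 28.6 in normoxia and at 33.7, 29.4 and 27.8 normalized CPM in hypoxia. The log2 fold changes of MRPS23 and MRPS6 were both 0.37, with groups that overlapped and adjusted p of 0.633 and 0.609 from edgeR.

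The lowest log2 fold changes of the small subunit were those of MRPS14 (-0.34), MRPS28 (-0.31), MRPS7 (-0.31) and MRPS18B (-0.22), with adjusted p of 0.748 to 0.859 from edgeR. MRPS14 and MRPS7 are counterparts of the bacterial proteins S14 and S7 of the head of the subunit. In all 4 genes the groups overlapped, and no MRPS gene had its 3 hypoxic libraries below all 3 normoxic ones.

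The small-subunit genes with the most counts were measured best, and they differed little. MRPS33, with 818 counts over the 6 libraries, was at 88.1, 90.0 and 95.2 normalized CPM in normoxia and at 79.7, 92.8 and 70.2 in hypoxia. Its 95% interval ran from -0.45 to 0.12 on the log2 scale. The interval was -0.34 to 0.26 for MRPS16 (717 counts) and -0.33 to 0.27 for MRPS5 (712 counts), counterparts of bacterial S16 and S5. For these 3 genes a change of 1.5-fold in either direction lay outside the interval. GENCODE 44 lists 3 pseudogenes named for MRPS33, 3 for MRPS16 and 2 for MRPS5. The paper left reads mapped to pseudogenes out of its final analysis, but fragments shared with these copies could still be counted for the gene.

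In the large subunit the highest log2 fold changes were those of MRPL49 (0.64), MRPL44 (0.49), MRPL17 (0.43) and MRPL1 (0.41), and none passed the test (adjusted p of 0.459 to 0.672 from edgeR). MRPL1 is the counterpart of bacterial L1, the protein of the mobile stalk through which deacylated tRNA leaves. It was at 27.2, 32.1 and 29.8 normalized CPM in normoxia and at 39.8, 38.0 and 41.0 in hypoxia. The groups did not overlap, and its 95% interval was 0.01 to 0.81 on the log2 scale. MRPL17, the counterpart of bacterial L17, was at 31.7, 34.7 and 21.6 in normoxia and at 31.3, 43.2 and 44.5 normalized CPM in hypoxia, so hypoxia replicate 1 lay among the normoxic libraries. MRPL49 and MRPL44, a protein related to ribonuclease III, had only 81 and 115 counts over the 6 libraries, and their intervals reached from -0.17 to 1.46 and from -0.22 to 1.19.

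The lowest log2 fold changes were those of MRPL47 (-0.51), MRPL32 (-0.46), MRPL33 (-0.40) and MRPL9 (-0.36), again with none past the test (adjusted p of 0.308 to 0.780 from edgeR). MRPL47, the counterpart of bacterial L29 near the exit of the peptide tunnel, was at 57.7, 59.8 and 38.7 normalized CPM in normoxia and at 32.5, 31.7 and 45.9 in hypoxia. Normoxia replicate 3 lay below hypoxia replicate 3, so the groups overlapped, although its 95% interval was -0.92 to -0.11. MRPL32, which the m-AAA protease of the inner membrane cleaves to its mature form, was at 33.7, 39.2 and 44.4 in normoxia and at 30.6, 29.4 and 25.02 normalized CPM in hypoxia. All 3 hypoxic libraries were below all 3 normoxic ones, with a 95% interval of -0.87 to -0.04. The listed transcripts of MRPL32, MRPL33, MRPL13 and MRPL21 are typed as targets of nonsense-mediated decay in GENCODE 44, as against 73 typed as protein-coding, and the part of this choice in their values was not tested. MRPL47 overlaps ACTL6A on the opposite strand and MRPL33 overlaps BABAM2 on the same strand. In all, 37 of the 77 genes overlap another protein-coding gene in GENCODE 44, 13 of them on the same strand (MRPS5, MRPS28, MRPL12, MRPL2 and MRPS24 also among those named here). Fragments from such regions could belong to either gene.

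The large-subunit genes with the most counts were MRPL3 (565 counts), MRPL19 (525) and MRPL42 (492). MRPL3 and MRPL19 are counterparts of bacterial L3 and L19, and MRPL42 is specific to mitochondria. MRPL19 was at 57.0, 57.2 and 58.4 normalized CPM in normoxia and at 49.0, 56.5 and 54.2 in hypoxia. Its hypoxic libraries lay below the normoxic ones, but by little (log2 fold change of -0.11, 95% interval -0.43 to 0.21, adjusted p = 0.867 from edgeR). The log2 fold change was -0.16 for MRPL3 and -0.17 for MRPL42, with groups that overlapped in both. Hypoxia replicate 1 had the highest MRPL42 level of its group, 62.5 normalized CPM, and hypoxia replicate 3 the lowest, 38.9.

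The stalk of the large subunit, which recruits translation factors, is built on MRPL11 and MRPL10 and carries copies of MRPL12. MRPL10 had 17, 8 and 16 counts in the normoxic libraries and 7, 11 and 5 in the hypoxic ones, too few to pass the filter, so it was not tested with the others. With no filter its log2 fold change was -0.88 (unadjusted p = 0.0474, adjusted p = 0.642 from edgeR), and in the other alternatives that kept it, it lay between -1.16 and -0.71, with a lowest adjusted p of 0.375 from edgeR. MRPL11 had a log2 fold change of -0.15 (95% interval -0.66 to 0.35). MRPL12, which also binds the mitochondrial RNA polymerase, had one of -0.31 (-0.94 to 0.32). Neither passed the test (adjusted p = 0.880 and 0.782 from edgeR).

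MRPS18A, MRPS18B and MRPS18C are paralogs related to bacterial S18 that occupy separate sites, the first of them in the large subunit despite its name. MRPS18C was at 48.6, 47.6 and 45.1 normalized CPM in normoxia and at 41.1, 51.3 and 45.9 in hypoxia. Log2 fold changes were -0.06 for MRPS18A, -0.22 for MRPS18B and -0.03 for MRPS18C, and none passed the test (adjusted p of 0.756 to 0.976 from edgeR). MRPS36, whose protein is now known as part of the 2-oxoglutarate dehydrogenase complex and not of the mitoribosome, had the flattest fit of the family members named here (log2 fold change of -0.00, 95% interval -0.38 to 0.37). With MRPS18A and MRPS30 counted in the large subunit and MRPS36 in neither, the median log2 fold changes were -0.04 and -0.06.

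The 8 MRPL genes and 1 MRPS gene that did not pass the filter had 6 to 64 counts over the 6 libraries. MRPL4 had 3, 4 and 0 counts in normoxia and 6, 6 and 10 in hypoxia. MRPL43 had 2, 0 and 2 against 2, 5 and 4. MRPL24, with 6 counts in all, and MRPL23, with 9, were the lowest. The others were MRPL2, MRPL36, MRPL48 and MRPS24, besides MRPL10, and none of the 9 has a value in the test.

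The precision of the 68 tested genes followed their 62 to 818 counts. The 95% interval of the log2 fold change excluded a 2-fold change in either direction in 61 genes and a 1.5-fold change in 27. In 5 genes, MRPS26 among them, the interval reached a 2-fold increase, and in 2 a 2-fold decrease. Per kilobase of listed transcript, over all 6 libraries, the median level of the tested genes was 16.7 normalized CPM for MRPL and 22.2 for MRPS genes. The highest were MRPS15 (60.5), MRPS26 (51.2) and MRPS5 (45.5). In normoxia alone MRPS26 was at 38.7 per kilobase, below MRPS15 (64.0), MRPS5 (45.9), MRPS9 (41.1) and MRPS21 (39.7). The lowest over all libraries was MRPL42 (3.32), whose listed transcript of 15582 bases is mostly untranslated. The listed length includes untranslated parts, while the paper left reads on noncoding parts of mRNAs out of its final analysis. The part of this in the levels per kilobase was not tested.

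Grouped by ancestry, the 39 tested genes whose proteins have bacterial counterparts had a median log2 fold change of -0.09, with 12 above 0. The 28 specific to mitochondria had a median of -0.00, with 14 above 0, beside 49.0% above 0 among all protein-coding features. MRPS26 and MRPS34 belong to the mitochondrion-specific group, and MRPL1, MRPL32 and MRPL47 to the bacterial one. MRPS18A and MRPS18B, although related to bacterial S18, were counted as specific to mitochondria. MRPS36 was in neither group. By edgeR, DESeq2 and limma-voom alike, no gene with a bacterial counterpart was called. DESeq2 gave no adjusted p for some of them, such as MRPL11, MRPL12, MRPL33, MRPS6 and MRPS28, so it could not call these. Of the 39 genes, 1 was higher and 2 were lower at an unadjusted p under 0.05 in edgeR. Over all protein-coding features, 5.64% were higher and 4.74% lower. By adjusted p, edgeR called 0.74% of all protein-coding features, so no call among these 39 genes is near that background.

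Promoters of 68 members were found in RefSeq (GRCh38.p14, 250 bases before to 50 after the start site). Some of these promoters belong to members that were not tested. All short strings were searched on both strands. In member promoters, 2 strings exceeded their shares among promoters of tested protein-coding genes and among all promoters by the most. Others exceeded both shares by less. CCGGAAG, a core bound by ETS factors such as GABPA, which is known as a regulator of nuclear genes for mitochondria, was present on either strand in 28 of 68 (41.2%), against 19.9% of 8589 promoters of tested protein-coding genes and 10.7% of all 27305 promoters. AAGATGGC, the core recognized by YY1, was present in 20 of 68 (29.4%), against 5.79% and 3.03%. On the strand of the gene, 15 of its 17 matches began at or after the start site. For the forms of the hypoxia response element core, ACGTG was found in 27.9% of member promoters against 27.2% of those of tested genes, and GCGTG in 57.4% against 51.4%. Among all promoters, ACGTG was found in 21.6% and GCGTG in 36.3%. A full palindromic NRF1 site was found in 1.47% of member promoters, against 2.47% of those of tested genes and 1.36% of all, and GCGCATG, a part of that site, in 10.3%, against 7.85% and 4.67%. The SP1 core GGGCGG was found in 60.3%, against 70.8% and 44.6%. Matches are descriptions of letters, not of binding.

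The windows below show CCGGAAG and AAGATGGC in the promoters of some genes described above, written 5′ to 3′ on the strand of the gene. The string or its reverse complement is in capitals, and its first base is numbered from the start site at 0. MRPS26 holds CCGGAAG in reverse at -37 (chr20:3046004-3046033, plus strand) and MRPS34 in reverse at -71, -29 and -19, of which the copy at -29 is in capitals (chr16:1773145-1773174, minus strand) and the one at -19 follows it in lower case. MRPL47 holds it at -39 (chr3:179604659-179604688, minus strand) and MRPL3 at -32 (chr3:131502985-131503014, minus strand). AAGATGGC lies in reverse at -92 in MRPL47 (chr3:179604712-179604741) and at -222 in MRPL32 (chr7:42932143-42932172, plus strand).
MRPS26, CCGGAAG in reverse: tccccgcgccgCTTCCGGggcacggtggcg
MRPS34, CCGGAAG in reverse: gacaccggcctCTTCCGGtgacttccggcc
MRPL47, CCGGAAG: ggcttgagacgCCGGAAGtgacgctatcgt
MRPL3, CCGGAAG: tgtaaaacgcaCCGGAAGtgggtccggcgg
MRPL47, AAGATGGC in reverse: ggcaggatgtgGCCATCTTaagtgagggca
MRPL32, AAGATGGC in reverse: acccgcgctccGCCATCTTtacccgaagag

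The log2 fold changes were then split by strings in the promoter, as a description. Tested genes with CCGGAAG in the promoter had a median log2 fold change of -0.06 (26 genes) and those without it one of -0.05 (36 genes). The medians were -0.10 with AAGATGGC (18 genes) and -0.04 without it (44 genes), and -0.06 with ACGTG (17 genes) and -0.06 without it (45 genes). For GCGTG, where the medians lay farthest apart, they were -0.03 with it (36 genes) and -0.16 without it (26 genes).

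Other genes of mitochondrial translation, taken from lists of symbols, gave no call either by edgeR. With 0.74% of all protein-coding features called, that is near the background for lists of this size, here and below. The 6 mitoribosomal proteins that carry other symbols had a median log2 fold change of -0.07. Among them, DAP3, a GTP-binding protein of the small subunit, had 0.19 and PTCD3, which sits where mRNA enters, -0.04. Of 25 genes for assembly of the mitoribosome and modification of its rRNA, 21 were tested and none passed, with 2 higher at an unadjusted p under 0.05. At that threshold 5.64% of all protein-coding features were higher and 4.74% lower, the background for the lists below too. TRUB2 and NGRN, the 2 with the most counts, had log2 fold changes of -0.06 and 0.03. RBFA, an assembly factor of the small subunit named after its value was seen, was at 6.48, 7.71 and 6.98 normalized CPM in normoxia and at 10.4, 18.4 and 13.9 in hypoxia. Its groups did not overlap, on 102 counts in all, and the log2 fold change was 1.01 (95% interval 0.28 to 1.74), with an adjusted p of 0.225 from edgeR.

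Of 15 translation factors and helpers tested, none passed, and 1 was higher at an unadjusted p under 0.05. That gene, MTIF2, the initiation factor that brings in the first tRNA, was at 75.2, 78.4 and 99.1 normalized CPM in normoxia and at 108, 106 and 110.5 in hypoxia. All its hypoxic libraries lay above the normoxic ones, with a 95% interval of 0.09 to 0.64 on the log2 scale and an adjusted p of 0.274 from edgeR. LRPPRC, which stabilizes mitochondrial mRNAs, had -0.03. Of 13 regulators of mitochondrial transcription and biogenesis tested, 11 had values below 0, beside 5650 of all 11082 protein-coding features. None of the 13 passed at an unadjusted p under 0.05 or by adjusted p. TFAM, which packages mitochondrial DNA and starts its transcription, had -0.08, and MYC -0.12.

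The mRNAs that the mitoribosome translates were covered unevenly. Of 13 rows for them, 5 were listed at 0 in every library, 3 had counts under the filter and 5 were tested, none past the threshold, with a median log2 fold change of -0.25 and 1 lower at an unadjusted p under 0.05. That one, MT-CO3, a subunit of cytochrome c oxidase named after its value was seen, was at 48.6, 52.7 and 47.0 normalized CPM in normoxia and at 32.5, 36.3 and 41.7 in hypoxia (adjusted p = 0.375 from edgeR). MT-ND3, a complex I subunit with 3681 counts, had -0.06 and MT-ND4, another, -0.25. Also tested, and named after their values were seen, were MT-ATP6 (-0.53, 72 counts) and MT-CYB (0.76, 71 counts). MT-CYB was the only 1 of the 5 above 0 (adjusted p = 0.589 from edgeR). For comparison, 83 cytosolic ribosomal protein genes tested had a median log2 fold change of 0.04 and none passed, with 1 higher at an unadjusted p under 0.05.

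**Figure D4:**
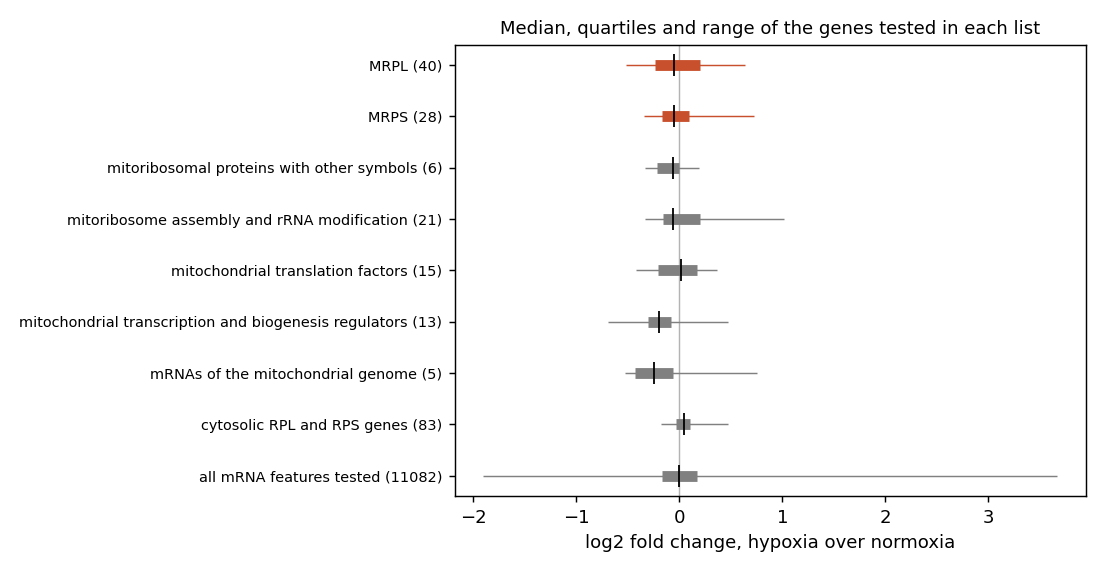
Log2 fold change of hypoxia over normoxia in each list, with the number of genes tested in brackets, as the median (black tick), quartiles (thick bar) and range (thin line). The medians of MRPL and MRPS genes are both at -0.05, close to that of all protein-coding features at -0.01, and every list spans 0.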

How the data were processed

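Per the paper's methods, reads were trimmed by the authors (Cutadapt), cleared of housekeeping small RNAs and aligned to miRNAs and then to GENCODE protein-coding transcripts, with counting by eXpress. The paper's final analysis left out reads on minor transcripts, pseudogenes and noncoding parts of mRNAs. The submitters' processing notes name Bowtie, Bowtie2, FastQC and hg38. The deposited values are raw counts for miRNAs and for protein-coding genes, each gene by 1 transcript, beside a transcript length. Both tables were joined, filtered with filterByExpr, scaled by TMM and tested with edgeR 4.0.16 (R 4.3.3) at an adjusted p of 0.05. Standard errors were derived from the F statistic, and 95% intervals, unadjusted, from it and the fitted degrees of freedom. The fit was tested on simulated data. Alternatives used DESeq2 1.42.0, limma 3.58.1, other scaling and filters, a replicate block and each library left out. Gene positions and transcript types came from GENCODE 44, promoters from RefSeq, both on GRCh38.

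Members and lists were chosen with earlier results of these data known. Named were called genes, the 4 highest and 4 lowest log2 fold changes and the 3 largest counts of each subunit, genes with groups apart and an unadjusted p under 0.05, the MRPS18 paralogs, stalk proteins and MRPS36, and of each further list called genes and the 2 largest counts. Others are said to be named after their values, were not tested, or illustrate a level per length or a promoter.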

Additional observations from a re-analysis of the deposited data

How the results depend on the processing

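No MRPL gene was called in either direction, and no MRPS gene lower, under any of the alternatives run. DESeq2 gave no adjusted p for some of these genes and so could not call them. The count of MRPS genes called higher, 1 with all libraries, was 0 by DESeq2 and 0 with the replicate block (MRPS26 adjusted p = 0.0728 from edgeR), and 0 to 1 with 1 library left out. It stayed 1, MRPS26 each time, with DESeq2's size factors, limma-voom, no filter, a minimum of 30 counts, the protein-coding table alone and a robust edgeR fit, which was chosen after seeing the data. The log2 fold change of MRPS26 was above 0 throughout (0.59 to 0.80 with 1 library left out). Same-numbered libraries did not deviate together (correlations of -0.00, 0.00 and -0.09), so the block rests on numbers alone. The MRPL median ran from -0.13 to -0.00 and the MRPS median from -0.12 to 0.04 with 1 library left out, the last without hypoxia replicate 1. Of 27 named members tested, 21 kept the sign of their log2 fold change in every alternative, and MRPL11, MRPS5, MRPS16, MRPS18A, MRPS18C and MRPS36, all between -0.15 and -0.00 with all libraries, did not. Apart from MRPS26, the genes whose intervals reached a 2-fold change had 62 to 115 counts over the 6 libraries.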
